A study of Homo sapiens with 12 samples.

Results

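The genes examined here encode the serine/arginine-rich (SR) splicing factors, the heterogeneous nuclear ribonucleoproteins (hnRNPs) and the subunits of the splicing factor 3 (SF3) complexes. They were followed in HCC1806 cells, an established human triple-negative breast cancer (TNBC) cell line. Members were the protein-coding genes of the authors' expression table whose symbol starts with SRSF, HNRNP or SF3. Of 48 such genes in the GENCODE annotation, 42 had a row in the table, which holds 13611 protein-coding genes. These were 11 of 12 SRSF genes, 22 of 27 HNRNP genes and 9 of 9 SF3 genes. No row was found for SRSF12, HNRNPCL1, HNRNPCL2, HNRNPCL3, HNRNPCL4 and the read-through gene HNRNPUL2-BSCL2.

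The study asked how mixed-lineage kinase 4 (MLK4, gene MAP3K21) shapes the response of TNBC cells to DNA damage. Cells got either non-targeting siRNA (siNT) or a pool of siRNAs against MLK4 (siMLK4), and doxorubicin at 1 μM was added to part of them 24 h later and left on for 24 h. The sample labels give the other samples as DMSO, called vehicle here, whereas the study's methods call them untreated. Sample titles mark them t0 and the doxorubicin samples t24, and if controls were collected when treatment began, the drug and a further day of culture cannot be told apart. However, a supplementary legend of the study describes 24 h of either DMSO or doxorubicin, and the study's results name vehicle-only controls. Doxorubicin poisons topoisomerase II and leaves DNA double-strand breaks. This gave 4 groups of 3 mRNA-seq libraries, siNT vehicle, siNT doxorubicin, siMLK4 vehicle and siMLK4 doxorubicin, with 16759025 to 19302248 reads on the genes of the table. All cells, controls included, were of the same line and had been transfected, and only 1 dose and 1 duration of doxorubicin were used. Transfection was done in triplicate, but whether on separate days or passages is not given in the sources used here, so p-values measure the spread between these libraries, which may be technical. The labelled cell type was checked against marker genes. All 12 epithelial and basal markers searched were measured, with KRT8 the most abundant on average at 16364 to 32633 reads per library, whereas the hormone receptor genes ESR1 and PGR had 39 to 149 and 0 to 20 reads. Of other luminal genes searched, ERBB2, which encodes HER2, had 1133 to 2222 reads per library, GATA3 1112 to 2908 and FOXA1 186 to 359.

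SR proteins bind exonic enhancers through their RNA recognition motifs and recruit the splicing machinery through a domain rich in arginine-serine dipeptides. The hnRNPs coat nascent transcripts, and many of them repress nearby splice sites. The SF3a and SF3b complexes are part of the U2 small nuclear ribonucleoprotein, in which SF3b holds the branch point of the intron. Many SR and hnRNP genes limit their own expression by splicing in exons with premature stop codons, which sends the transcript to nonsense-mediated decay. The values used here are sums over all transcripts of a gene and do not separate such isoforms from those that encode protein.

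Values are given as normalized reads, which are reads divided by the size factor of the library as the authors set it. A gene was called when the adjusted p was under 0.01 and the absolute log2 fold change over 0.75, on the authors' variance-stabilized log2 scale, which understates the change of genes with few reads. Together, the 42 members took 1.42, 1.42 and 1.34% of the reads in siNT cells with vehicle and 0.963, 1.01 and 1.07% with doxorubicin. In siMLK4 cells their share was 1.37, 1.39 and 1.24% with vehicle and 0.885, 0.827 and 0.978% with doxorubicin. Every doxorubicin library was thus below every vehicle library. Every member had at least 16 reads in every library. Such values are relative to the other genes of a library, and fewer cells of a kind and less RNA per cell cannot be told apart in bulk samples.

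The knock-down was checked first. MAP3K21 lies at chr1:233327724-233385148 on the plus strand (GRCh38). The sense strands of the 4 siRNAs of the pool are shown because they define the knock-down groups. Capitals mark the 19 bases found in the coding sequence of the MAP3K21 transcript, and the lower-case bases are overhangs.
siMLK4_1: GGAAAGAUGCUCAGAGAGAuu
siMLK4_2: AGGAGAAGCCCAAGGUAAAuu
siMLK4_3: AGAAGAAACGAGAGGGAAUuu
siMLK4_4: AGAACAGAUUGCAAAGAAAuu
The first of these matched exon 9 at chr1:233379030-233379048, the second exon 5 at chr1:233362204-233362222, the third exon 9 at chr1:233379276-233379294 and the fourth exon 7 at chr1:233376047-233376065. None of these 19-base stretches occurred in a transcript of the 42 members (0 transcripts for each siRNA). MAP3K21 had 553, 669.6 and 674 normalized reads in siNT vehicle cells and 103, 94.7 and 88.7 in siMLK4 vehicle cells. With doxorubicin it had 758, 856 and 772 normalized reads in siNT cells and 113, 138 and 94.4 in siMLK4 cells. All siMLK4 libraries were far below all siNT libraries, with log2 fold changes of −2.24 (SE 0.12, adjusted p = 9.74e-08) with vehicle and −2.37 (SE 0.12, adjusted p = 1.12e-07) with doxorubicin.

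In siNT cells with vehicle the members differed widely in level. Per kilobase of the canonical transcript, HNRNPA2B1, which encodes an RNA-binding protein of the core hnRNP particle, was the most abundant member at 9986 normalized reads in siNT vehicle cells. HNRNPC, HNRNPK and HNRNPA1 followed at 5600.1, 5148 and 5039.7 normalized reads per kilobase. SRSF9 led the SR genes at 4920.0 normalized reads per kilobase and SF3B2 the SF3 genes at 2908. The lowest SR and SF3 genes were SRSF8 and SF3A1, at 268 and 565. HNRNPA1L2 and HNRNPA1L3, retrocopies of HNRNPA1, were lowest of all at 52.3 and 41.0. Both are uncertain, since all of HNRNPA1L2 (100%) and 51.6% of HNRNPA1L3 consist of 50-base stretches that also occur in transcripts of other genes.

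**Figure D1:**
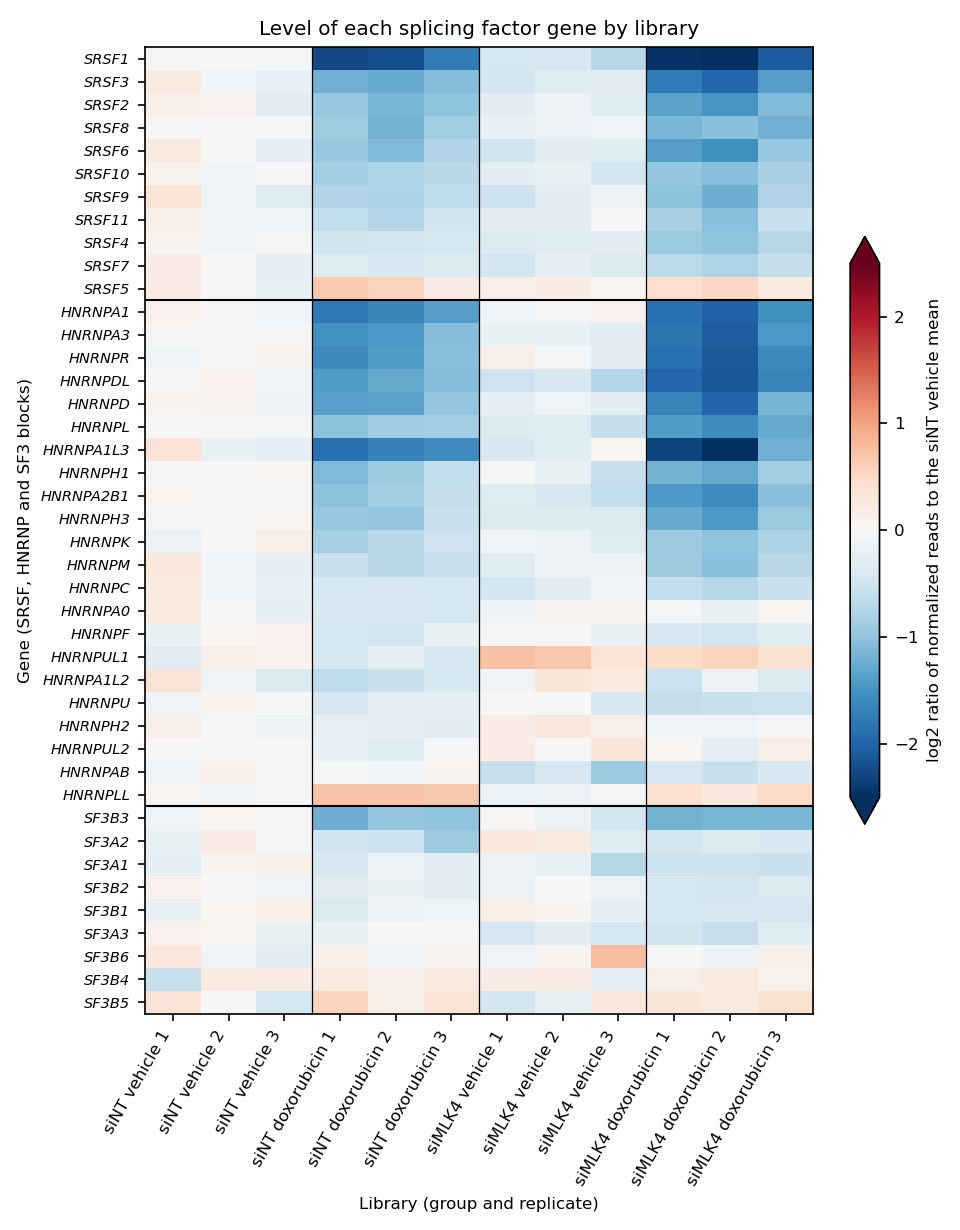
Normalized reads of each of the 42 members (rows, in SRSF, HNRNP and SF3 blocks) in each of the 12 libraries (columns), as the log2 ratio to the mean of the 3 siNT vehicle libraries. Blue is lower and red higher. The doxorubicin columns are blue for most SRSF and HNRNP genes in both siRNA groups, SRSF5 and HNRNPLL are red there, HNRNPUL1 is red in the siMLK4 vehicle columns, and most SF3 rows stay pale except SF3B3.

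Doxorubicin in siNT cells lowered many SR and hnRNP genes. Of the 42 members, 17 were called lower and 0 higher, where 10.6% of all genes were called lower, 12.1% higher and 22.7% in either direction. By family, 6 of 11 SRSF genes, 10 of 22 HNRNP genes and 1 of 9 SF3 genes were called lower. The median log2 fold change was −0.59 over the members, −0.75 over the SRSF genes, −0.63 over the HNRNP genes and −0.19 over the SF3 genes, against 0.0046 over all genes. At adjusted p under 0.05 alone, 29 members were lower and 2 higher, where 27.7% and 29.6% of all genes were, or 57.3% in either direction. Scaling by library totals in place of the size factors moved the median of all genes to 0.24, and 10 members were then called lower and 1, HNRNPLL, higher. The shares of all genes given above belong to the fit with the size factors and are no background for these counts. The calls of HNRNPA2B1, HNRNPL, HNRNPH1, HNRNPH3, SRSF6, SRSF8 and SRSF10 were lost.

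SRSF1 had the largest fall. It encodes the founding member of the SR family and lies at chr17:58000919-58007346 on the minus strand. Its normalized reads with vehicle were 2464, 2434 and 2341, and with doxorubicin they were 504, 529 and 712. All treated libraries were below all vehicle libraries, and the treated mean was 24.1% of the vehicle mean. This is a log2 fold change of −1.97 (SE 0.14, adjusted p = 1.36e-07). Of the bases of its canonical transcript, 31.6% lie in exons of another gene on the same strand (ENSG00000266086).

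SRSF3, which encodes the smallest SR protein, fell from 14310.5, 11519 and 10440.3 to 5293, 5028 and 5717 normalized reads, to 44.2% of the vehicle mean. Its log2 fold change was −1.16 (SE 0.15, adjusted p = 2.04e-05). SRSF2, an activator of exonic enhancers also known as SC35, fell from 6354, 6248 and 4876 to 3009, 2649 and 2915 normalized reads. Its log2 fold change was −1.01 (SE 0.13, adjusted p = 1.4e-05). In both genes every treated library was below every vehicle library.

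Of the other SR genes called, SRSF8 is an expressed retrocopy of SRSF2. It had 1168, 1133 and 1165 normalized reads with vehicle and 627, 509 and 629.6 with doxorubicin, a log2 fold change of −0.92 (SE 0.10, adjusted p = 4.56e-06). SRSF6 went from 2004, 1713 and 1454 to 894, 799 and 1020.0 normalized reads, with a log2 fold change of −0.89 (SE 0.15, adjusted p = 0.000199). SRSF10, whose protein turns into a general splicing repressor once dephosphorylated, went from 5099.7, 4481 and 4774 to 2673, 2816 and 2974. The groups of these 3 genes did not overlap, and the log2 fold change of SRSF10, −0.75 (SE 0.11, adjusted p = 4.86e-05), lay just past the threshold. SRSF9, SRSF11, SRSF4 and SRSF7 were lower at adjusted p under 0.05 but did not reach the fold threshold, with log2 fold changes from −0.69 to −0.34.

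SRSF5 moved the other way and was the only SR gene to do so. It encodes the SR protein formerly called SRp40. Vehicle libraries had 2698, 2335 and 2093 normalized reads and doxorubicin libraries 3729, 3499 and 2752. The lowest treated library was only slightly above the highest vehicle library. At 0.47 (SE 0.13, adjusted p = 0.00687), its log2 fold change stayed short of the fold threshold. Per kilobase, SRSF5 was below SRSF9, SRSF2, SRSF3 and SRSF7 with vehicle, at 1588 normalized reads, and second only to SRSF9 with doxorubicin, at 2224. Over the same treatment SRSF9 had 7144, 5305 and 4554 normalized reads with vehicle and 3354, 3269 and 3646 with doxorubicin, and a log2 fold change of −0.69 (SE 0.16, adjusted p = 0.00235).

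The window around the transcription start is shown for SRSF1, SRSF3 and HNRNPR, which fell, and for SRSF5 and HNRNPLL, which rose. Sequences are RefSeq promoter windows of GRCh38.p14, 130 bases from 80 before to 50 after the annotated start, 5′ to 3′ on the strand of the gene. Capitals mark matches, on either strand, to the CCAAT box, the GC box GGGCGG, the TATA box with letters TATAAA, the ETS core CCGGAA, the CRE with letters TGACGTCA, the NRF1 site, or the core GCCATTT of the YY1 site.
SRSF1: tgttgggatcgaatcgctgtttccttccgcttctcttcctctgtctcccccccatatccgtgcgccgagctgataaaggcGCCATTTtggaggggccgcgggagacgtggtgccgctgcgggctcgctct
SRSF3: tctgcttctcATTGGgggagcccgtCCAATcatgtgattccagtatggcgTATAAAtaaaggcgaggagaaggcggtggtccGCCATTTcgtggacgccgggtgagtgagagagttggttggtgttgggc
HNRNPR: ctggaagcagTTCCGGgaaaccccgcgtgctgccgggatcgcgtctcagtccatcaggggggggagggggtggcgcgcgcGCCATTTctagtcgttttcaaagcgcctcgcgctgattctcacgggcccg
SRSF5: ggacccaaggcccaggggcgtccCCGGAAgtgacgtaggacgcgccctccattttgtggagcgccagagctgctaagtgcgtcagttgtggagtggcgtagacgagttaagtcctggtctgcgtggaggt
HNRNPLL: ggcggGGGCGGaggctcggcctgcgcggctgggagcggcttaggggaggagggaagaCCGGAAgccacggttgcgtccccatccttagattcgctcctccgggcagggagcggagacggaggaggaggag
The windows are chr17:58007197-58007326 on the minus strand for SRSF1, chr6:36594282-36594411 on the plus strand for SRSF3, chr1:23344235-23344364 on the minus strand for HNRNPR, chr14:69767062-69767191 on the plus strand for SRSF5 and chr2:38602879-38603008 on the minus strand for HNRNPLL. These 5 genes were picked for how they moved, and members both called and not called hold the motif. GCCATTT stands at or just after the start of SRSF1, SRSF3 and HNRNPR. Over the full windows it was held by 6 of the 12 members with a window that were called lower in both siRNA groups, the other ones being HNRNPD, HNRNPH1 and HNRNPH3, and by 4 of 26 other members, namely SF3B1, HNRNPC, HNRNPM and HNRNPUL1. This motif was added to the search after the windows had been read, so these counts are no independent evidence. Over the full windows of 300 bases, with 53 windows for 38 of the 42 members, GCCATTT was found in 20.8% of member windows and 4.39% of all 35116 RefSeq windows. Counted by gene, 10 of 38 members held it, or 26.3%, against 5.39% of all genes with a window. As the motif was added after the windows had been read, these shares are no independent evidence either. Genes with several windows, such as HNRNPH1, HNRNPH3 and HNRNPUL1, also had more chances to hold it. The shares for the other motifs were 43.4% of member windows against 34.6% of all for CCAAT, 62.3% against 45% for GGGCGG, 28.3% against 17.2% for CCGGAA and 11.3% against 11.5% for TATAAA. TGACGTCA and the NRF1 site were in 0 member windows and in 1.85% and 1.24% of all windows. A match describes the letters only, and binding was not measured.

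Among the hnRNP genes, HNRNPA1, HNRNPA3, HNRNPR, HNRNPDL and HNRNPD had the largest decreases on the variance-stabilized log2 scale. HNRNPA1 encodes an abundant repressor of splice sites. It fell from 20346, 18676 and 17584 to 5443, 6023 and 7256 normalized reads, to 33.1% of the vehicle mean, with a log2 fold change of −1.60 (SE 0.14, adjusted p = 6.55e-07). HNRNPA3 fell from 21938, 21701 and 20664 to 7535, 7911 and 10046, with a log2 fold change of −1.34 (SE 0.15, adjusted p = 5.12e-06). Every treated library of both genes was below every vehicle library. Of the 50-base stretches of HNRNPA1, 12.3% occur in transcripts of 59 other genes, most of all HNRNPA1L3. Of those of HNRNPA3, 61.7% occur elsewhere on either strand, mostly in the neighbouring NFE2L2, whereas its exons on its own strand, by which reads were counted, overlap other genes by only 0.105%.

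HNRNPD encodes AUF1, a protein that binds AU-rich elements and steers mRNA decay, and HNRNPDL its close paralog. HNRNPD had 10479, 10484 and 9137 normalized reads with vehicle and 3895, 3959 and 5139 with doxorubicin, and a log2 fold change of −1.21 (SE 0.17, adjusted p = 3.64e-05). HNRNPDL went from 5936, 6393 and 5577 to 2268, 2464 and 2802, with a log2 fold change of −1.23 (SE 0.13, adjusted p = 3.83e-06). HNRNPR, which encodes an RNA-binding protein related to SYNCRIP, fell from 7469, 8057 and 8539 to 2647, 3057 and 3839 normalized reads. Its log2 fold change was −1.33 (SE 0.16, adjusted p = 8.49e-06). All 3 genes fell to between 39.7% and 43.2% of their vehicle means without overlap between groups.

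A further 5 hnRNP genes were called lower. HNRNPA2B1 had 37543, 35943 and 35197 normalized reads with vehicle and 17712, 20225 and 23827 with doxorubicin, a log2 fold change of −0.82 (SE 0.15, adjusted p = 0.00036). HNRNPL, whose protein binds CA repeats, went from 5252, 5292 and 5092 to 2545, 2825 and 2856, a log2 fold change of −0.92 (SE 0.11, adjusted p = 1.02e-05). Both were still well separated between the groups. HNRNPH1 and HNRNPH3 encode proteins that bind runs of G. HNRNPH1 had 7823, 7983 and 8252 normalized reads with vehicle and 3715, 4189 and 5229.6 with doxorubicin, a log2 fold change of −0.88 (SE 0.16, adjusted p = 0.000277). HNRNPH3 went from 5529.5, 5523 and 5804 to 2918, 2850.3 and 3832, a log2 fold change of −0.81 (SE 0.14, adjusted p = 0.00016). The retrocopy HNRNPA1L3 went from 99.8, 70.6 and 66.2 to 21.2, 24.4 and 26.4 normalized reads, a log2 fold change of −0.91 (SE 0.15, adjusted p = 0.000174), on few reads and with sequence shared with HNRNPA1. In normalized reads it fell to 30.4% of the vehicle mean, further than HNRNPA1.

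HNRNPLL rose. It encodes a paralog of hnRNP L best known for the splicing of the CD45 transcript in lymphocytes. Vehicle libraries had 1168, 1084 and 1136 normalized reads and doxorubicin libraries 1839, 1858 and 1799, a clear separation and 162% of the vehicle mean. The log2 fold change of 0.67 (SE 0.094, adjusted p = 3.74e-05) stayed below the fold threshold. HNRNPK, HNRNPM, HNRNPC, HNRNPA0, HNRNPF and HNRNPUL1 were lower at adjusted p under 0.05, with log2 fold changes from −0.67 to −0.34. HNRNPA1L2, HNRNPU, HNRNPH2, HNRNPUL2 and HNRNPAB did not pass that test, at −0.31, −0.29, −0.22, −0.15 and −0.013.

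Of the SF3 genes only SF3B3 was called, and SF3A2 and SF3B2 were lower at adjusted p under 0.05. SF3B3 encodes the large scaffold subunit of SF3b and lies at chr16:70523791-70577670 on the plus strand. It fell from 5196, 5744 and 5694 to 2376, 2829.9 and 2749.6 normalized reads, to 47.8% of the vehicle mean, with a log2 fold change of −1.05 (SE 0.12, adjusted p = 6.1e-06). SF3B1, the subunit that clamps the branch point, had 8793, 10353 and 10919 normalized reads with vehicle and 7833, 9172 and 9243 with doxorubicin. Its groups overlapped, and its log2 fold change came to −0.19 (SE 0.13, adjusted p = 0.211), with a 95% interval of −0.47 to 0.081. SF3B2 went from 10273, 9396 and 8879.9 to 7789, 8435 and 7879 normalized reads, with a log2 fold change of −0.24 (SE 0.099, adjusted p = 0.0498). SF3A2 was lower at −0.60 (SE 0.15, adjusted p = 0.00381), whereas SF3A1, SF3A3, SF3B4, SF3B5 and SF3B6 did not pass adjusted p under 0.05, with log2 fold changes from −0.26 to 0.36. The estimates for subunits of the same SF3b complex ranged from −1.05 for SF3B3 to 0.36 for SF3B5. For SF3B5 the groups overlapped, and the 95% interval of −0.044 to 0.76 included no change (adjusted p = 0.117 in limma).

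**Figure D2:**
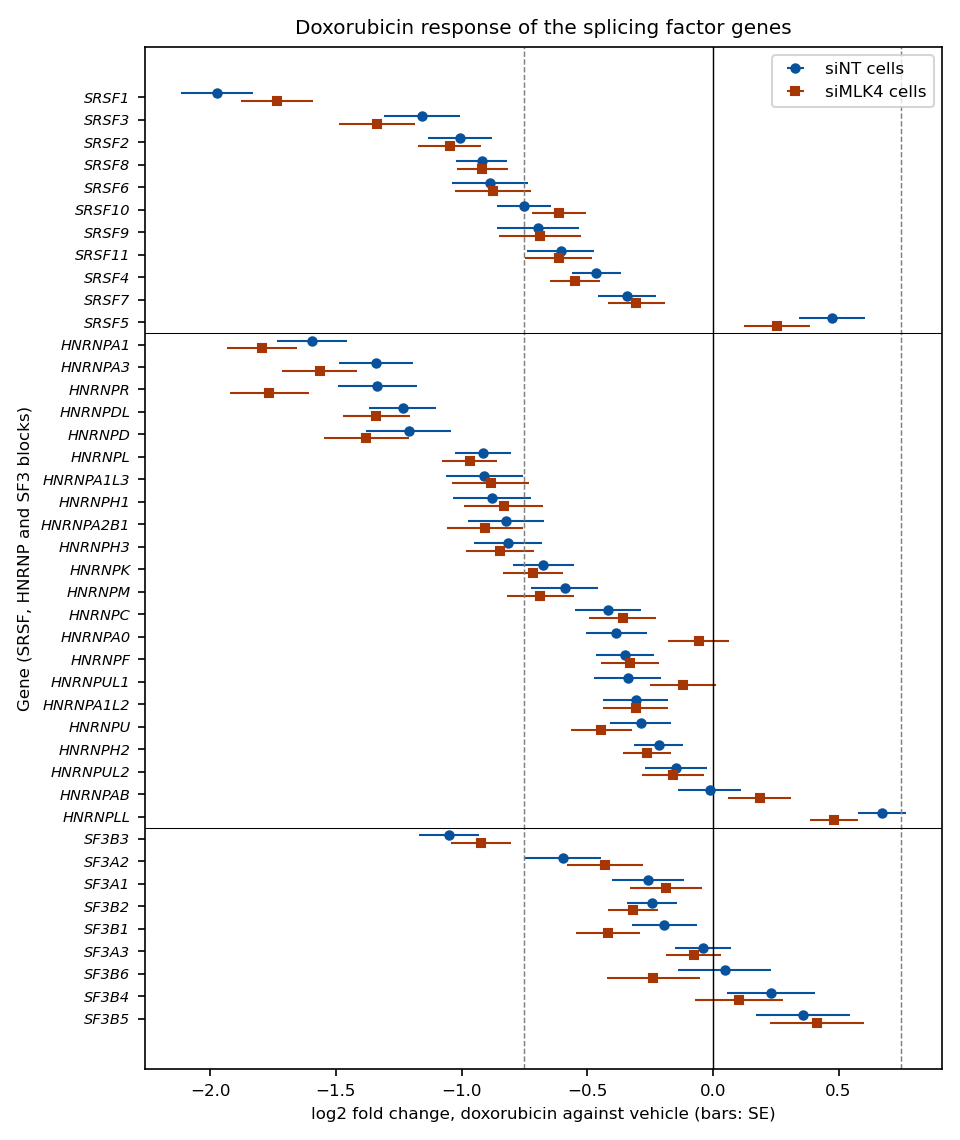
Log2 fold change of doxorubicin against vehicle for the 42 members, ordered within each family by the value in siNT cells. Points are limma estimates in siNT cells (circles) and siMLK4 cells (squares), bars are 1 SE, and dashed lines mark the fold threshold of 0.75. SRSF1 lies at −1.97 and −1.73, HNRNPLL at 0.67 and 0.48, and HNRNPR, with the widest gap between the siRNA groups, at −1.33 and −1.77.

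In siMLK4 cells doxorubicin lowered 16 members and raised 0, where 10.6% of all genes were called lower, 12.6% higher and 23.2% in either direction. The 2 doxorubicin comparisons share no libraries, and 16 of the 17 members called in siNT cells were called in siMLK4 cells too. The overlap of calls over all genes is not given here, so this overlap is not shown to be particular to the members. SRSF10 was called in siNT cells only, and 25 members in neither. By family, 5 SRSF, 10 HNRNP and 1 SF3 gene were called. The median log2 fold change over the members was −0.58, against 0.018 over all genes, and at adjusted p under 0.05 alone 30 members were lower and 1 higher, where 27.7% and 30.2% of all genes were, or 57.9% in either direction. Under scaling by library totals 12 members were called lower, and HNRNPA2B1, HNRNPH1, HNRNPH3 and SRSF6 lost their calls. As in siNT cells, the shares of all genes with the size factors are no background for that count.

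SRSF1 had 1790.4, 1798 and 1467 normalized reads with vehicle and 440.1, 406 and 569.8 with doxorubicin in these cells, with a log2 fold change of −1.73 (SE 0.14, adjusted p = 4.57e-07). HNRNPA1 went from 17911, 18349.8 and 20222 to 5206, 4623 and 6484, with a log2 fold change of −1.79 (SE 0.14, adjusted p = 2.9e-07). HNRNPR went from 8907, 7836 and 6617 to 2215, 1881 and 2679, with a log2 fold change of −1.77 (SE 0.16, adjusted p = 8.17e-07). The treated means were 28.0%, 28.9% and 29.0% of the vehicle means, and no treated library reached a vehicle library.

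HNRNPA3 had 19111, 19175 and 17664 normalized reads with vehicle and 6069.7, 5142 and 7886 with doxorubicin, a log2 fold change of −1.56 (SE 0.15, adjusted p = 1.38e-06). HNRNPD went from 8581, 9276 and 8336 to 3214, 2554 and 4454, a log2 fold change of −1.38 (SE 0.17, adjusted p = 1.18e-05). HNRNPDL went from 4180.0, 4572 and 3588 to 1532, 1376 and 1888, a log2 fold change of −1.34 (SE 0.13, adjusted p = 1.94e-06). In each of these genes the treated libraries had less than any vehicle library by a wide margin. SRSF3 went from 8678, 9746 and 10112 to 3591, 3094 and 4673 normalized reads, a log2 fold change of −1.33 (SE 0.15, adjusted p = 6e-06). SRSF2 went from 4764, 5285 and 4739.6 to 2308, 2097 and 2696, a log2 fold change of −1.05 (SE 0.13, adjusted p = 9.83e-06). SF3B3 was again the only SF3 gene called. It had 5387, 5041 and 3968 normalized reads with vehicle and 2431, 2522 and 2503 with doxorubicin, a log2 fold change of −0.92 (SE 0.12, adjusted p = 1.87e-05).

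The calls in siMLK4 cells also took in the remaining members called in siNT cells, apart from SRSF10. SRSF8 went from 1025, 1048 and 1067 to 521, 564 and 505 normalized reads, and SRSF6 from 1228, 1414 and 1396 to 661, 598 and 895. Their log2 fold changes were −0.92 and −0.88. Among the hnRNP genes, HNRNPL went from 4139.9, 4159 and 3429 to 1972, 1766 and 2177 normalized reads, with a log2 fold change of −0.97. HNRNPA2B1 went from 29003, 27628 and 23697 to 13422, 12155 and 17557, with a log2 fold change of −0.91. HNRNPH1 went from 7809, 7056 and 5366 to 3539, 3317 and 4371, and HNRNPH3 from 4403, 4462 and 4396 to 2339, 2077 and 2953. The log2 fold changes of this G-run pair were −0.83 and −0.85, and no vehicle and treated libraries overlapped. HNRNPA1L3 went from 60.1, 63.8 and 81.1 to 16.1, 13.3 and 34.5 normalized reads, with a log2 fold change of −0.88. SRSF10 went from 3941, 4179.9 and 3428 to 2462, 2296 and 2739 with −0.61 (SE 0.11, adjusted p = 0.00027), short of the fold threshold. It was one of 14 members that were lower at adjusted p under 0.05 but not called. These had log2 fold changes from −0.72 for HNRNPK to −0.26 for HNRNPH2, and included SF3B1 at −0.42 (SE 0.13, adjusted p = 0.012).

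Of the genes that rose in siNT cells, HNRNPLL had 1019, 1014 and 1103 normalized reads with vehicle and 1496, 1352 and 1600.4 with doxorubicin in siMLK4 cells, with a log2 fold change of 0.48 (SE 0.094, adjusted p = 0.000591). SRSF5 went from 2659, 2703 and 2445 to 3185, 3399 and 2795. The SRSF5 libraries did not overlap, but the log2 fold change of 0.26 (SE 0.13, adjusted p = 0.108) did not pass adjusted p under 0.05. SRSF9 went from 3924, 4691 and 5216 to 2779, 2416 and 3353 normalized reads, with −0.69 (SE 0.16, adjusted p = 0.00251), and SF3B2 from 8653, 9415 and 8565 to 7013, 6928 and 7392, with −0.32 (SE 0.099, adjusted p = 0.0134).

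The 2 doxorubicin responses were then compared directly. For 0 of the 42 members did the difference pass adjusted p under 0.05 in limma, where 1.2% of all genes passed (0.576% higher and 0.623% lower), and 0 were called, where 0.276% were (0.0999% higher and 0.176% lower). At an unadjusted p under 0.05 the count was also 0 of 42, against 14.5% of all genes. The largest differences of log2 fold change, siMLK4 minus siNT, were −0.43 (SE 0.22, adjusted p = 0.404) for HNRNPR and 0.33 (SE 0.17, adjusted p = 0.413) for HNRNPA0. The 95% interval was −0.91 to 0.045 for HNRNPR, −0.19 to 0.67 for SRSF1, −0.61 to 0.18 for SRSF5 and −0.48 to 0.094 for HNRNPLL. These intervals leave room for differences of the size of many changes above, so equal responses are not shown.

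**Figure D3:**
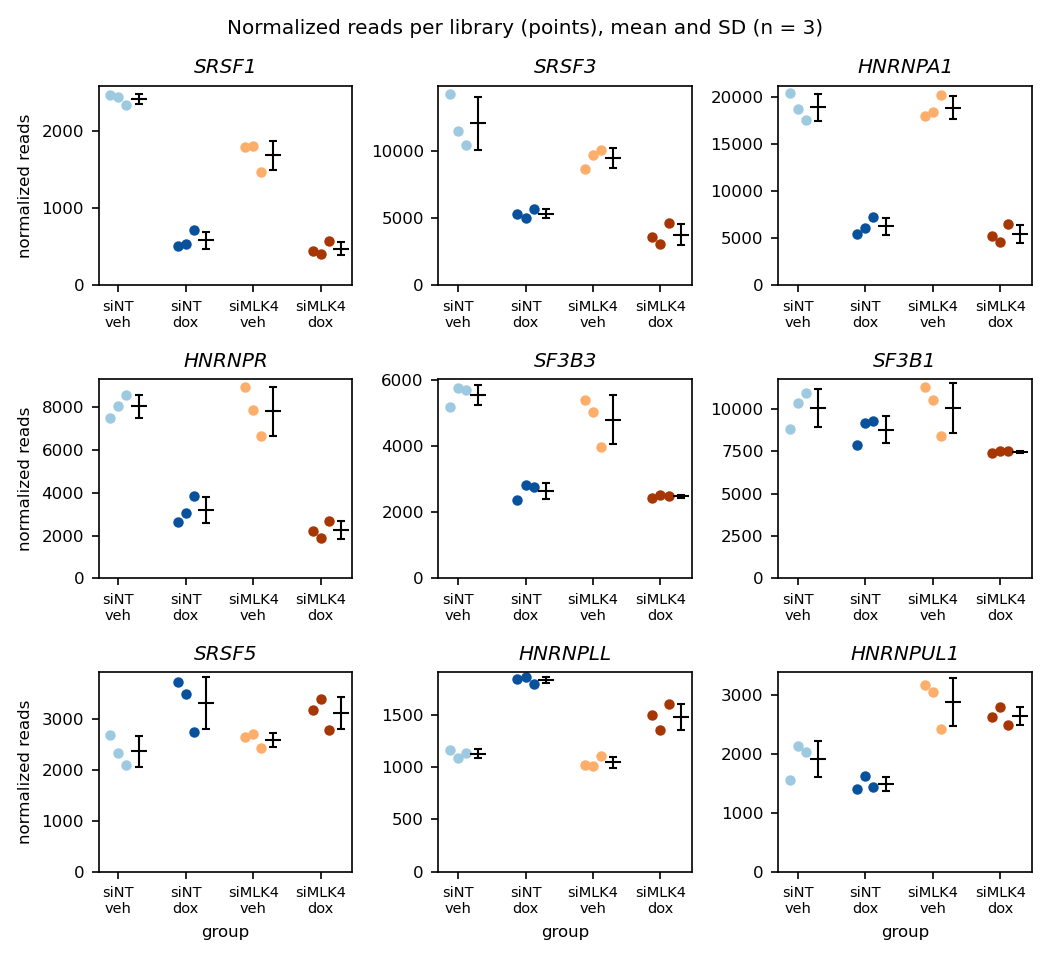
Normalized reads of 9 members in each library (points) with the group mean and SD (n = 3) beside them. Axes start at 0. SRSF1, SRSF3, HNRNPA1, HNRNPR and SF3B3 drop with doxorubicin in both siRNA groups, SF3B1 shows overlapping groups in siNT cells, SRSF5 and HNRNPLL are higher with doxorubicin, and HNRNPUL1 is higher in siMLK4 than in siNT cells.

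The doxorubicin libraries were not uniform. The first principal component over all genes, which separates doxorubicin from vehicle, was 42.5, 41.1 and 28.0 for doxorubicin in siNT cells and 49.3, 57.0 and 35.9 in siMLK4 cells. Replicate 3 of both groups was thus nearest to the vehicle libraries, which lay between −47.7 and −37.0. Of the 17 members called lower in siNT cells, 15 had their highest doxorubicin value in replicate 3, and of the 16 in siMLK4 cells, 14 had. Without siNT doxorubicin replicate 3, 18 members were called lower in siNT cells, and without siMLK4 doxorubicin replicate 3, 19 in siMLK4 cells. The matching shares over all genes are not given here, so none of these counts is shown to be particular to the members. Some epithelial and basal breast markers were also lower with doxorubicin. Of the 12 searched, 7 were called lower and 0 higher in siNT cells, against 10.6% and 12.1% of all genes, with a median log2 fold change of −1.21, and 7 and 0 in siMLK4 cells, with a median of −1.24. KRT8 was not among them, at 0.44 (SE 0.17, adjusted p = 0.0398) in siNT and −0.30 (SE 0.17, adjusted p = 0.141) in siMLK4 cells. The summed level of the 12 markers was 163651 ± 6003 normalized reads (SD, n = 3) with vehicle and 106593 ± 5472 with doxorubicin in siNT cells, and 146925 ± 11342 and 68516 ± 7115 in siMLK4 cells. Of 16 fibroblast, endothelial and leukocyte markers 10 had no row, COL1A1 was the most abundant of the rest at 238 to 534 reads per library, and PTPRC had 0 to 25. Their summed level was 480.7 ± 50.4, 364.7 ± 16.5, 818.9 ± 101.5 and 532.7 ± 80.4 normalized reads in the same order of groups. The summed level of the 6 luminal receptor genes searched, most of which came from ERBB2 and GATA3, did not fall. It was 3191 ± 213 with vehicle and 3901 ± 154 with doxorubicin in siNT cells, and 4670 ± 722 and 4728 ± 190 in siMLK4 cells. This sum hides ESR1, which averaged 92.7 normalized reads in siNT vehicle and 46.5 in siNT doxorubicin libraries. The siMLK4 means of ESR1 were 117 with vehicle and 49.0 with doxorubicin. Of the 6 genes, doxorubicin gave 1 call higher and 0 lower in siNT cells, against 1 higher and 1 lower in siMLK4 cells. Mitochondrial transcripts took 1.74 to 3.66% of reads in siNT vehicle, 2.62 to 3.57% in siNT doxorubicin, 2.60 to 3.25% in siMLK4 vehicle and 3.84 to 4.75% in siMLK4 doxorubicin libraries. The part of these differences in the changes of the splicing factor genes was not tested.

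MLK4 knock-down gave few calls among the members. With vehicle, 0 of 42 were called, where 3.14% of all genes were called lower, 2.51% higher and 5.65% in either direction. At adjusted p under 0.05, 9 members were lower and 1 higher in limma, where 13% and 12.7% of all genes (25.8% in either direction) were, and 14 members (33.3%) had an unadjusted p under 0.05, against 37% of all genes. The median log2 fold change was −0.17 over the members, −0.31 over the SRSF genes, −0.15 over the HNRNP genes, −0.086 over the SF3 genes and 0.012 over all genes.

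HNRNPAB, which encodes a protein of the A/B group, showed the largest difference with vehicle. Its normalized reads were 4262, 4918 and 4352 in siNT and 3035, 3387 and 2369 in siMLK4 cells, a log2 fold change of −0.63 (SE 0.13, adjusted p = 0.00244). With doxorubicin against vehicle it did not pass the test in either siRNA group, at −0.013 in siNT cells (95% interval −0.28 to 0.25) and 0.19 in siMLK4 cells (95% interval −0.082 to 0.45). HNRNPDL and SRSF1, whose values are given above, had log2 fold changes of −0.54 (SE 0.13, adjusted p = 0.00872) and −0.51 (SE 0.14, adjusted p = 0.0171). Their siMLK4 vehicle libraries were all below their siNT vehicle libraries. HNRNPA2B1 (−0.44), HNRNPL (−0.42), SF3A3 (−0.37), SRSF7 (−0.35), SRSF10 (−0.31) and SRSF4 (−0.31) were also lower at adjusted p under 0.05.

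HNRNPUL1 was the one member higher in knock-down cells at adjusted p under 0.05. It encodes a protein related to hnRNP U that is known to act at sites of DNA damage, and lies at chr19:41262496-41307787 on the plus strand. With vehicle it had 1561, 2133 and 2029.7 normalized reads in siNT and 3170.1, 3051 and 2422 in siMLK4 libraries, a log2 fold change of 0.58 (SE 0.13, adjusted p = 0.00537). With doxorubicin it had 1405, 1618 and 1438 in siNT and 2616, 2793 and 2492 in siMLK4 libraries, a log2 fold change of 0.80 (SE 0.13, adjusted p = 0.000649). All siMLK4 libraries were above all siNT libraries in both treatments, with means at 151% of the siNT level under vehicle and 177% under doxorubicin. The paralogs HNRNPU and HNRNPUL2 had log2 fold changes of −0.11 and 0.15 with vehicle and −0.27 and 0.14 with doxorubicin, and none of these passed adjusted p under 0.05.

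With doxorubicin, HNRNPUL1 was the only member called between siMLK4 and siNT cells, higher, and 0 were called lower. Of all genes, 2.66% were called higher, 2.93% lower and 5.58% in either direction. At adjusted p under 0.05, 9 members were lower and 1 higher, where 12.1% and 12.7% of all genes were, or 24.8% in either direction. The median log2 fold change was −0.22 over the members and 0.023 over all genes. The largest decreases on the log2 scale were those of HNRNPDL at −0.64 (SE 0.13, adjusted p = 0.00303), HNRNPA2B1 at −0.52 (SE 0.15, adjusted p = 0.0209) and SRSF3 at −0.51 (SE 0.15, adjusted p = 0.0235). The siMLK4 doxorubicin libraries of these 3 genes were all below the siNT doxorubicin libraries. HNRNPR (−0.48), HNRNPL (−0.47), HNRNPAB (−0.43), SF3A3 (−0.41), SRSF4 (−0.39) and HNRNPLL (−0.30) were lower at adjusted p under 0.05 too. HNRNPAB had 4412, 4276 and 4700.4 normalized reads in siNT and 3393, 3071 and 3468 in siMLK4 doxorubicin libraries. SRSF1 was not among them, at −0.27 (SE 0.14, adjusted p = 0.183).

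**Figure D4:**
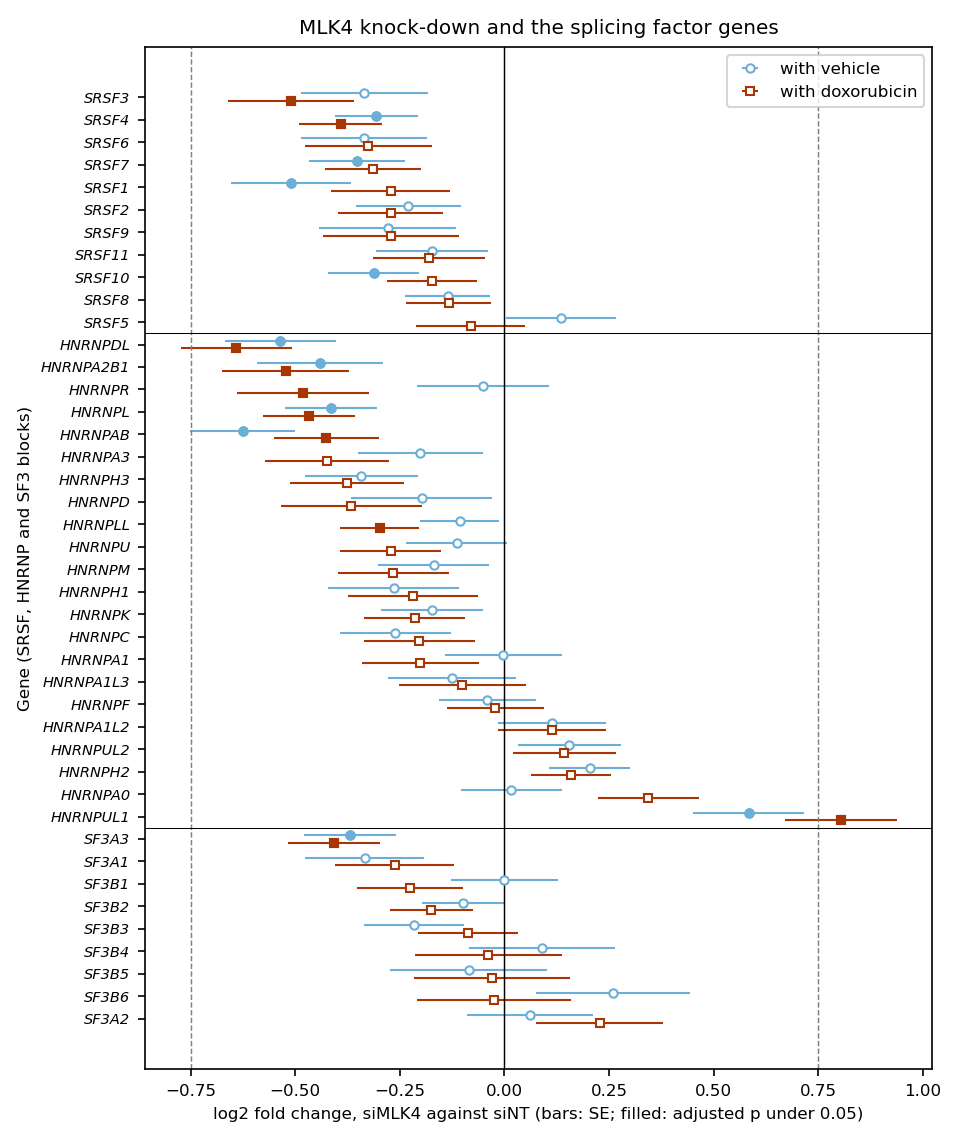
Log2 fold change of siMLK4 against siNT for the 42 members with vehicle (circles) and with doxorubicin (squares), ordered within each family by the value with doxorubicin. Bars are 1 SE, filled points have an adjusted p under 0.05 in limma, and dashed lines mark the fold threshold of 0.75. HNRNPUL1 with doxorubicin, at 0.80, is the only point beyond a dashed line.

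Other genes of the splicing machinery were taken from lists and described by their counts. In siNT cells with doxorubicin, 22.7% of all genes were called, 10.6% lower and 12.1% higher. Of 25 SR kinases and partners with RS domains, 3 were called lower and 1 higher, with a median log2 fold change of −0.072. TRA2B, a relative of the SR proteins that activates exons, went from 6157 ± 565 (SD, n = 3) to 3009 ± 166 normalized reads, a log2 fold change of −1.02 (SE 0.098, adjusted p = 1.46e-06). THRAP3, which encodes an RS-rich protein linked to splicing and the DNA damage response, went from 4434 ± 584 to 2248 ± 52.9, with −0.96 (SE 0.11, adjusted p = 7.66e-06). Of 42 other splicing regulators measured, 7 were called lower and 1 higher, with a median of −0.25. KHDRBS3, a STAR-family RNA-binding protein also called SLM2, rose from 24.7, 35.3 and 21.3 to 359.9, 329 and 265 normalized reads, a log2 fold change of 2.38 (SE 0.16, adjusted p = 8.37e-08). DAZAP1, which encodes an hnRNP-like protein, fell from 2732 ± 54.2 to 1002 ± 34.5 normalized reads, with −1.40 (SE 0.094, adjusted p = 8.37e-08).

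The core components were counted in the same way. Of 32 genes for U1, U2 and Sm proteins, 4 were called lower and 0 higher in siNT cells, with a median log2 fold change of −0.18. SNRPA, which encodes a U1 protein, fell from 1529 ± 86.0 to 699 ± 93.3 normalized reads, with −1.08 (SE 0.12, adjusted p = 4.97e-06). Of 48 U4/U6.U5 and catalytic factors, 2 were called lower and 1 higher, with a median of −0.019. LSM2, a subunit of the ring that binds U6, had a log2 fold change of −1.57 (SE 0.16, adjusted p = 2.58e-06), whereas SLU7, a factor of the second step of splicing, had 1.18 (SE 0.12, adjusted p = 2.13e-06). Of 12 genes of the minor spliceosome, 3 were called lower and 2 higher, with a median of 0.058. The latter 2 were ZMAT5 and RBM48, with 1.29 and 1.19. Of 17 genes of nonsense-mediated decay, 0 were called lower and 1 higher, with a median of −0.029. This gene was SMG8, a regulator of the kinase SMG1, with 0.97 (SE 0.16, adjusted p = 0.000151), and MAGOHB, a subunit of the exon junction complex, had −0.70 (SE 0.13, adjusted p = 0.00048).

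The same lists were counted between siMLK4 and siNT cells with doxorubicin, where 2.66% of all genes were called higher and 2.93% lower. Of 25 SR kinases and RS-domain partners 1 was called lower, of 42 other splicing regulators 1 higher and of 12 minor spliceosome genes 1 higher, and the 3 remaining lists had 0 calls. SCAF4, which encodes an RS-domain partner of RNA polymerase II, was the gene called lower, with 1333, 1545 and 1379.9 normalized reads in siNT and 738, 894 and 635 in siMLK4 libraries and a log2 fold change of −0.87 (SE 0.18, adjusted p = 0.00268). NOVA2, a mainly neuronal regulator, had only 22.1, 24.4 and 9.12 normalized reads in siNT and 50.9, 74.2 and 39.9 in siMLK4 libraries, and a log2 fold change of 0.76 (SE 0.16, adjusted p = 0.00298). ARMC7 was the gene of the minor spliceosome list, at 0.78 (SE 0.13, adjusted p = 0.000887). SREK1, RBM6, PRPF40B, PRPF4B, SNRNP27, ZMAT5 and MAGOHB were lower at adjusted p under 0.05 only, with log2 fold changes from −0.75 to −0.45, and SMG6 was higher at 0.44.

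The members were compared by properties that did not enter their choice. Across the 42 members, Spearman's rho between the log2 fold change of doxorubicin in siNT cells and the length of the canonical transcript was −0.35, against −0.086 across 16957 annotated genes. With the mean normalized reads it was −0.29 for the members and −0.26 for the annotated genes, and with the span of the gene 0.060 and −0.098. With the number of exons of the canonical transcript it was 0.057 and −0.20. These are correlations across genes measured in the same libraries, so the points share depth and normalization.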

How the data were processed

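Poly(A) mRNA libraries of 12 samples (4 groups of 3) were analysed. The authors trimmed reads with Trimmomatic 0.39, aligned with HISAT2, removed optical duplicates, counted reversely stranded reads per gene with HTSeq 0.6.0 and deposited values on a log2 scale from the variance-stabilizing transformation of DESeq2 1.26.0. The study's methods name GRCh38 and the submitters' processing notes hg19, and no filter on genes is stated in the sources used here. Coordinates are those of GENCODE 44 (GRCh38), matched by gene identifier for 16957 of 17013 genes, and were not used to read the authors' counts.

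The deposited log2 values were inverted to whole reads (100% of values within 0.05 of a whole number), with size factors of 0.852 to 1.199, and normalized reads are these reads divided by the size factor. Libraries held 16759025 to 19302248 reads. Group means were fitted to the deposited log2 values of all 12 libraries with limma 3.58.1 (lmFit and eBayes with a variance trend, R 4.3.3), and p-values were adjusted by Benjamini-Hochberg over 17013 genes. All adjusted p-values in the text are from this fit. The script was tested on simulated data. Values in every library are given for each member called in any of 5 comparisons, for the 3 members with the largest log2 fold change in each direction per comparison among those at adjusted p under 0.05, and for the member of each family with the most reads per kilobase. Of each pathway list, the 2 genes with the largest absolute log2 fold change at adjusted p under 0.05 are named in each of 2 comparisons, except for a gene that is not reported here. The members, lists and rules were chosen with earlier results of these data known.

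Replicate numbers come from the sample titles. Deviations from the group means of same-numbered libraries correlated at 0.460, 0.105 and 0.205 between siNT vehicle and siNT doxorubicin. Between siNT and siMLK4 with doxorubicin they correlated at 0.190, 0.516 and 0.559. The values were −0.077, 0.176 and 0.337 between siMLK4 vehicle and siMLK4 doxorubicin, and −0.723, 0.325 and −0.523 between siNT and siMLK4 with vehicle. The numbers thus gave no common pairing over the 4 groups. The main fit held no replicate term, and counts with a replicate block are given below. The descriptions of siMLK4 doxorubicin replicates 2 and 3 end in the same sample index. Their reads differed far beyond sampling noise (chi-square per degree of freedom 25.2, against 7.0 to 63.7 over all pairs within groups), and both were kept.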

Additional observations from a re-analysis of the deposited data

Results flagged for a closer look

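Among 10 rows with the same name prefixes that are not protein coding, and which entered no comparison above, 2 were called higher than the control group in a comparison. HNRNPD-DT, a divergent transcript beside HNRNPD, had 9.39, 3.11 and 2.25 normalized reads in siNT vehicle and 72.0, 44.8 and 34.5 in siNT doxorubicin libraries, a log2 fold change of 1.24 (SE 0.16, adjusted p = 2.09e-05). In siMLK4 cells it had 6.01, 6.97 and 10.8 normalized reads with vehicle and at least 49.0 in every doxorubicin library, a log2 fold change of 1.24 (SE 0.16, adjusted p = 1.99e-05). All doxorubicin libraries were above all vehicle libraries, whereas HNRNPD itself fell in both. HNRNPA1P33, a pseudogene of HNRNPA1, had 14.1, 34.3 and 14.6 normalized reads in siNT vehicle and 68.1, 61.8 and 56.2 in siMLK4 vehicle libraries, a log2 fold change of 0.81 (SE 0.16, adjusted p = 0.00258). HNRNPA1 did not pass the test in that comparison, and reads of a pseudogene cannot be fully told apart from those of its parent gene. HNRNPA1P7, another such pseudogene, was called lower with doxorubicin, at −0.84 in siNT and −1.05 in siMLK4 cells.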

How the results depend on the processing

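The fit was repeated under 20 alternatives. With the adjusted p under 0.05 and no fold threshold, 31 members passed with doxorubicin in siNT cells, 31 in siMLK4 cells, and 10 in each comparison of siMLK4 with siNT. With a fold threshold of 1 these counts were 9, 8, 0 with vehicle and 0 with doxorubicin, and with one of 0.5 the siMLK4 comparisons gave 3 with vehicle and 2 with doxorubicin. For doxorubicin in siNT cells, 0.5 adds SRSF9, HNRNPK, SRSF11, SF3A2 and HNRNPM, lower, and HNRNPLL, higher at 0.67. In siMLK4 cells it adds HNRNPK, SRSF9, HNRNPM, SRSF11, SRSF10 and SRSF4, lower. Shares of all genes were given above only for the main threshold and for adjusted p under 0.05. The other counts in this paragraph have no such background. Scaling by library totals gave 11 calls with doxorubicin in siNT cells, 10 lower and HNRNPLL higher at 0.94, and 12 in siMLK4 cells, all lower, where the median log2 fold change of all genes moved to 0.24 (0.21 in siMLK4 cells, 0.16 and 0.12 between siRNAs). It turned SF3B2 in siMLK4 against siNT with vehicle to 0.043 from −0.10. Leaving out one library at a time gave 15 to 18 calls with doxorubicin in siNT cells, 15 to 19 in siMLK4 cells, 0 with vehicle between siRNAs and 1 to 2 with doxorubicin, the second being HNRNPDL at −0.76 without siMLK4 doxorubicin replicate 3. The SRSF10 call in siNT cells was lost in 3 of 20 alternatives. Other calls also ended when 1 library was left out. HNRNPA2B1 lost its call in siNT cells without doxorubicin replicate 1 (−0.72). HNRNPH3 lost its call in siNT and in siMLK4 cells without doxorubicin replicate 2 of that group (−0.74 in each). HNRNPH1 lost its call in siMLK4 cells without vehicle replicate 1 (−0.72). With the replicate block, which pairs libraries by number, counts remained at 17, 16, 0, 1 and 0 for the 5 comparisons. Depth limits HNRNPA1L2 and HNRNPA1L3, the members with fewest reads. Exons of other genes on the same strand overlap HNRNPA1L2, HNRNPUL2, SRSF1, HNRNPL, HNRNPH2 and SRSF6. They overlap SRSF2 and HNRNPA3 only slightly. SRSF1, HNRNPL and SRSF6 were called lower with doxorubicin in both siRNA groups, and the part of such overlap in their changes was not tested.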
